A study of Mus musculus with 11 samples.

Results

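The genes described here are 40 genes of autophagy, of the lysosome and of the pathway around the transcription factor TFEB. They were a listed set, matched by gene symbol to the probe sets of the array that carry a single symbol, with the probe set of the highest mean signal standing for each gene. All 40 were found among the 22180 genes measured, 39 with 1 probe set and Gabarap with several. The values are log2 intensities from single-colour microarrays, so a difference of 1 is a doubling of signal.

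The cells were line 720, a mouse leukaemia line of the T-cell acute lymphoblastic kind (T-ALL). The labels trace this line to a Tcf12+/- mouse with a Tal1 transgene that the Lck promoter drives in T-lineage cells, and every group shares that single line and genotype. Cultures received 1 of 3 compounds named as Runt domain inhibitors, which are meant to act on the DNA-binding domain of RUNX transcription factors. Exposure lasted 8 h, with a final concentration of 100 µM for AI-7-54 and for AI-8-45 and of 50 µM for AI-9-54. There were 3 arrays of AI-7-54, numbered as replicates 1, 3 and 4, and 4 arrays of each other compound, all from cells recovered live. Vehicle-treated cells were not analysed here, so a gene described as higher after a compound is higher only relative to the other compound named. The labels give the compounds by code name and no structure. AI-9-54 differed from the others in dose as well, so compound and dose cannot be told apart in its comparisons. The labels do not say whether replicates were separate cultures, so the p-values rest on array-to-array spread that may be technical.

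Autophagy wraps cytoplasm in a double membrane, the autophagosome, and delivers it to the lysosome, where acid hydrolases break it down. The kinase ULK1 and a lipid kinase complex around Beclin 1 start the process, and a pair of ubiquitin-like conjugation systems then attach LC3 and GABARAP proteins, the ATG8 family, to the growing membrane. TFEB, TFE3 and MITF are the transcription factors that switch on many genes of autophagy and the lysosome by binding E-box elements. When nutrients are plentiful, mTORC1 at the lysosome surface keeps TFEB and TFE3 in the cytoplasm, a step that depends on RagC and RagD and on folliculin with its partners FNIP1 and FNIP2.

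Array medians lay between 6.61 and 6.68. The T-lineage genes Cd3e, Cd3g and Lat had mean intensities of 13.0, 12.98 and 12.78, near the top of the scale. The mean of 8 T-lineage markers ran from 11.2 to 11.4 over the AI-7-54 arrays, from 11.03 to 11.24 over AI-8-45 and from 10.94 to 11.09 over AI-9-54. Of these 8 markers Cd2, Cd5 and Thy1 had lower levels after AI-9-54 than in AI-7-54 arrays (differences of -0.81, -0.61 and -0.50, adjusted p 0.00162, 0.014 and 6.12e-05), and the part of this shift in the results below was not tested. Cd5 was also called lower in AI-8-45 minus AI-7-54 (-0.69, adjusted p 0.0153), and Thy1 in AI-9-54 minus AI-8-45 (-0.36, adjusted p 0.00359). Macrophages are rich in lysosomes, and the mean of 8 macrophage and myeloid markers lay between 6.58 and 6.68 on all 11 arrays with 0 of 8 called in any comparison by limma (1 of 8 at an unadjusted p under 0.05 between AI-9-54 and AI-7-54). The macrophage genes Adgre1 and Lyz2 were the dimmest of these markers, at 5.32 and 5.54. Cd68, Fcgr3 and Itgam lay above the median of all genes (6.91), at 8.94, 7.01 and 6.965. Replicates 1 and 2 deviated from their group means differently from replicates 3 and 4, a split seen in these arrays and not named in the labels. With compound in the model, 6 of the 40 genes (15%) differed between these replicate sets, against 7.07% of all genes, dim ones included. The sets were taken from these same arrays, so calls made with the set modelled are not independent support. A replicate block, with a term for each replicate number, is given beside some of them.

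The comparison of AI-9-54 with AI-7-54 held the most differences. The genes for the folliculin partner FNIP1 (1.32-fold) and folliculin itself (1.26-fold), the lysosomal calcium channel mucolipin 1 (Mcoln1, 1.22-fold), the autophagy initiation subunits Atg14 (1.28-fold) and Uvrag (1.22-fold), the lipid scramblase gene Atg9a, the proton pump subunit gene Atp6v0d1 and the hexosaminidase gene Hexa were higher after AI-9-54. The conjugation enzyme gene Atg7 was lower. In all, 8 of 40 genes were called higher and 1 lower at a limma adjusted p under 0.05, or 22.5%, where 14.2% of all 22180 genes were called (6.87% higher and 7.29% lower). Brighter genes were called more often, and 37 of the 40 lay above the median signal of all genes. Of genes above that median 26.3% were called (12.5% higher and 13.8% lower), close to the 24.3% of these 37. The share called was thus near that of other bright genes, while 8 of the 9 calls lay in the upward direction. The median difference over the 40 genes was 0.07, against 0.00 over all genes, and 29 of 40 differences were above 0. The median and the signs among bright genes were not computed. The members were chosen with earlier results of these data known, so their direction is not read as support. Arrays of the groups did not overlap for 15 of 40 genes, 14 of them higher after AI-9-54, where 23.2% of all genes did not overlap. That share includes dim genes. The share among bright genes and the split by direction were not computed, so the count is not read as an excess.

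**Figure D1:**
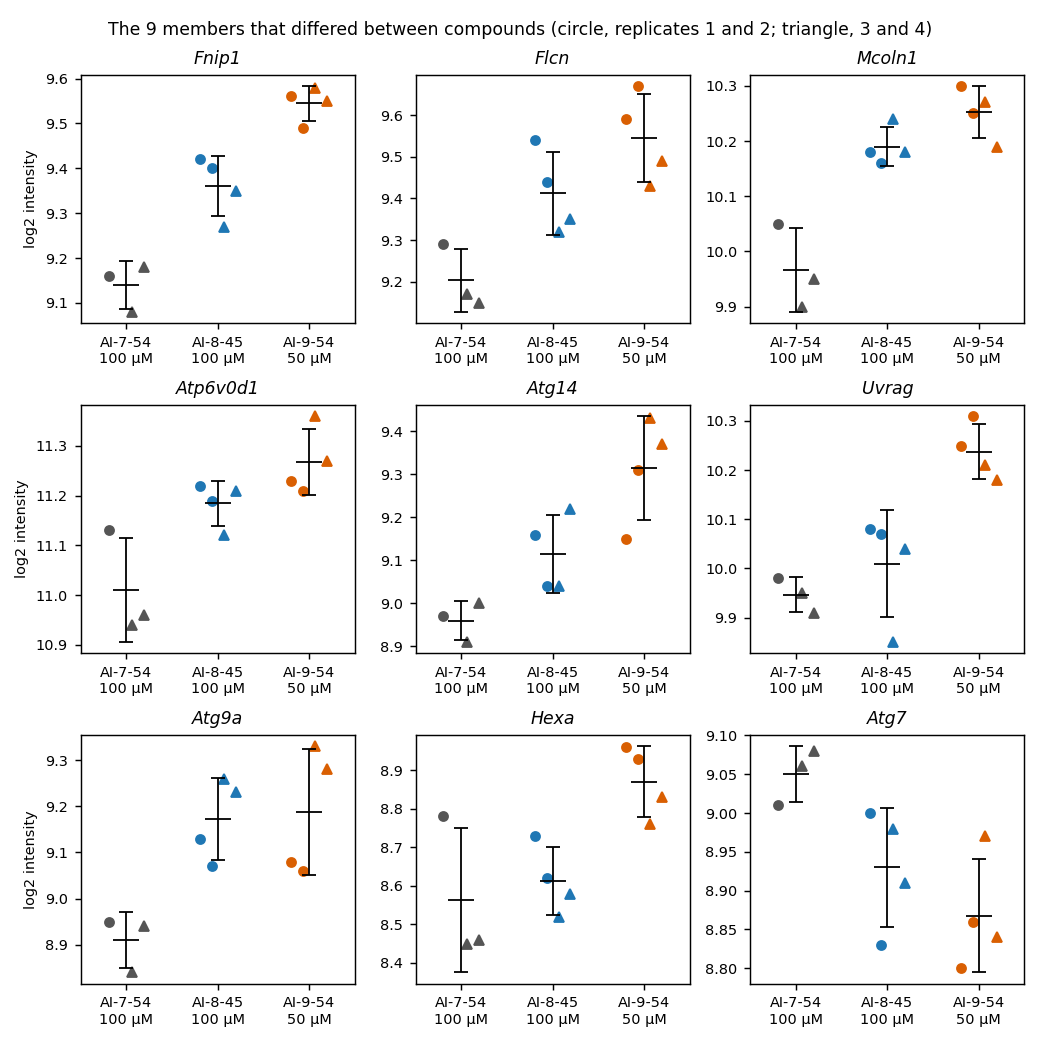
Log2 intensity (vertical axes, each with its own range) of the 9 genes that passed the test in at least 1 comparison, by compound and dose, with a point for each array and the mean ± SD of the group in black. Fnip1, Flcn, Mcoln1, Atp6v0d1, Atg14, Uvrag and Atg9a are higher on all 4 AI-9-54 arrays than on all 3 AI-7-54 arrays, Atg7 is lower on all 4, and the groups of Hexa overlap.

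Between AI-8-45 and AI-7-54, both at 100 µM, 2 of 40 genes were called higher and 0 lower. These were Mcoln1 and Fnip1, and 5% of the genes compares with 5.66% of all genes (2.13% higher and 3.53% lower) and with 10.9% of genes above the median signal. The median difference was 0.02 and the range ran from -0.14 for Atg5 to 0.26 for Atg9a, which missed the threshold (adjusted p 0.0582). With the replicate set modelled 5 genes were called, while the share of all genes called also rose, from 5.66% to 8.79%. The further ones were Atg9a (adjusted p 0.0104), Flcn and Lamp2, of which only Atg9a passed with the replicate block. Groups did not overlap for 6 of 40 genes, or 15%, against 15.9% of all genes. Between AI-9-54 at 50 µM and AI-8-45 at 100 µM, limma called 0 of 40 genes, against 1.31% of all genes (0.708% higher and 0.6% lower), and 8 of 40 had an unadjusted p under 0.05. With the replicate set modelled, 3 were called higher (Uvrag, Fnip1 and Hexa), where 3.68% of all genes were called in either direction. Groups did not overlap for 6 of 40 genes, where 6.67% of all genes, dim ones included, did not. The 95% intervals of this last comparison lay between -0.28 and 0.50 over the 40 genes. These are the extremes over all 40, the upper that of Gabarapl1, and other intervals were narrower (-0.08 to 0.10 for Gabarap). For each gene, differences within its own interval are not excluded. All comparisons with AI-7-54 share the same 3 arrays, and their values are set side by side below without an overlap between them.

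**Figure D2:**
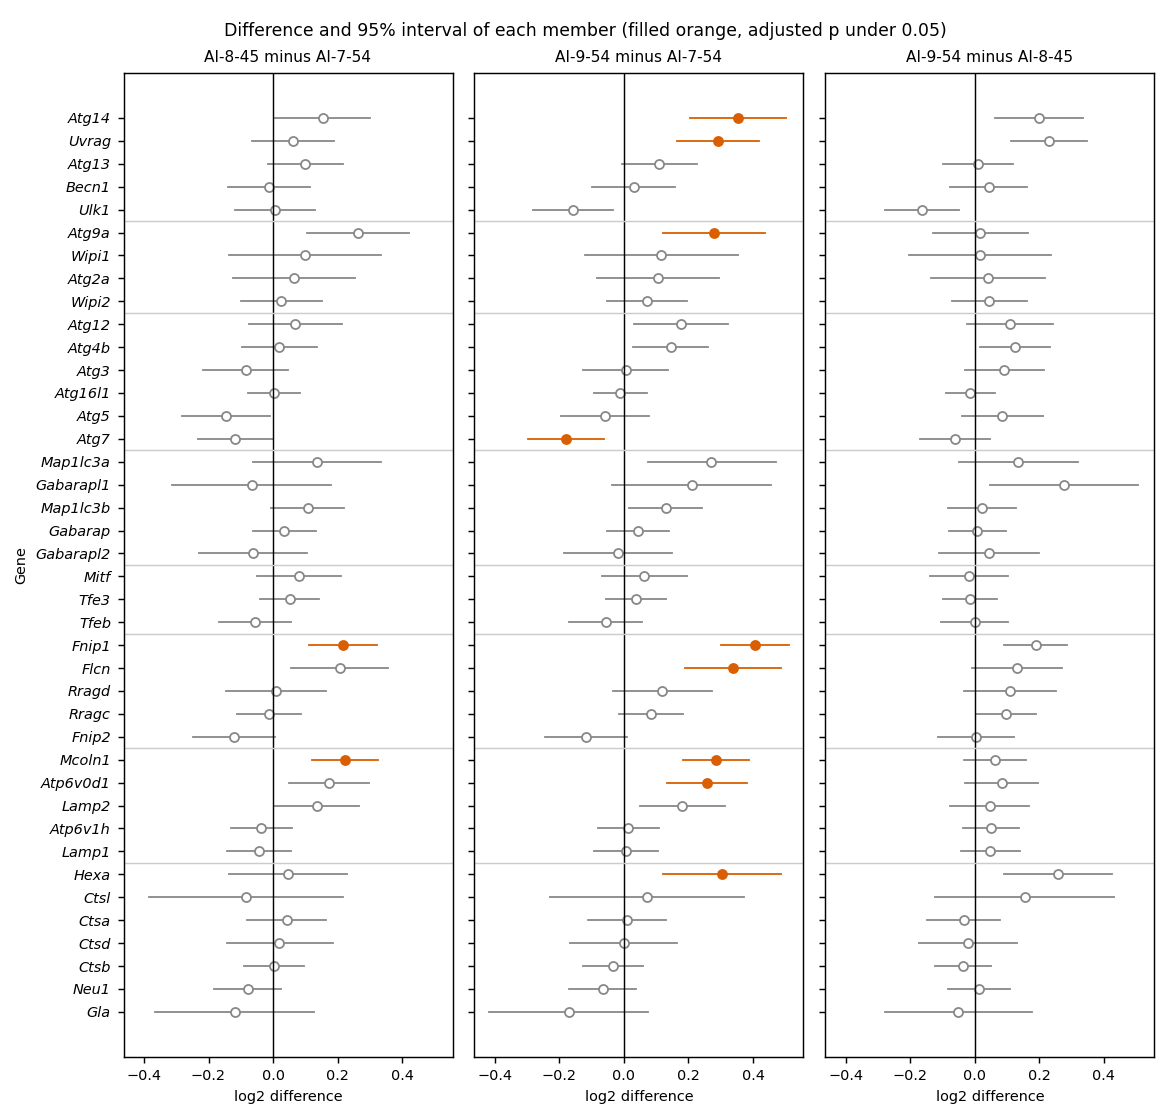
Log2 difference (horizontal axes) with its 95% interval for each of the 40 genes (vertical axis, grouped by role) in the comparisons AI-8-45 minus AI-7-54, AI-9-54 minus AI-7-54 and AI-9-54 minus AI-8-45. Filled orange points passed an adjusted p under 0.05, namely 2, 9 and 0 genes, and AI-9-54 was given at 50 µM and the others at 100 µM.

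The folliculin complex and the Rag GTPases link the lysosome surface to mTORC1 and to TFEB. Fnip1, which encodes the folliculin partner, had log2 intensities of 9.16, 9.08 and 9.18 after AI-7-54, of 9.42, 9.40, 9.27 and 9.35 after AI-8-45, and of 9.56, 9.49, 9.58 and 9.55 after AI-9-54. The 3 groups did not overlap, and AI-8-45 lay in the middle. Its difference from AI-7-54 was 0.22 ± 0.05 (SE) after AI-8-45 (adjusted p 0.0198) and 0.41 ± 0.05 after AI-9-54 (adjusted p 0.00015). Between these compounds it was 0.19 (95% interval 0.09 to 0.28, adjusted p 0.0705). That difference passed with the replicate set modelled (adjusted p 0.0382) but not with the replicate block (0.0807). The AI-8-45 call ended without AI-7-54 replicate 3 (adjusted p 0.108) and without AI-8-45 replicate 1 or 2 (0.0568 and 0.0562). Within replicates 1 and 2 and within replicates 3 and 4 the AI-9-54 difference was 0.37 and 0.43.

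Flcn, the folliculin gene, measured 9.29, 9.17 and 9.15 after AI-7-54, then 9.54, 9.44, 9.32 and 9.35 after AI-8-45, and 9.59, 9.67, 9.43 and 9.49 after AI-9-54. All arrays of AI-8-45 and AI-9-54 lay above those of AI-7-54, and replicates 1 and 2 lay above 3 and 4 in the groups with both (a difference of -0.15 between the replicate sets, adjusted p 0.0167). The AI-9-54 difference was 0.34 ± 0.07 (SE, adjusted p 0.00569), and 0.33 and 0.30 within the replicate sets. After AI-8-45 it was 0.21, which missed the threshold (adjusted p 0.118). That difference passed once the replicate set was modelled (adjusted p 0.0193) but not with the replicate block (0.0597). The other partner gene, Fnip2, was dim, with means of 6.06, 5.94 and 5.94 after AI-7-54, AI-8-45 and AI-9-54, and its difference after AI-9-54 was -0.12 (95% interval -0.24 to 0.01). The Rag GTPase genes Rragc and Rragd differed by 0.08 and 0.12 between AI-9-54 and AI-7-54 (adjusted p 0.3 and 0.364). In this group of 5 genes, 2 were thus called higher after AI-9-54 and 1 after AI-8-45.

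Mcoln1 encodes a lysosomal cation channel whose calcium release is known to help activate TFEB. It measured 10.05, 9.90 and 9.95 after AI-7-54, 10.18, 10.16, 10.24 and 10.18 after AI-8-45, and 10.30, 10.25, 10.27 and 10.19 after AI-9-54. The AI-7-54 arrays lay below all 8 others, and the AI-8-45 and AI-9-54 arrays overlapped. The difference from AI-7-54 was 0.22 ± 0.05 (SE) after AI-8-45 (adjusted p 0.0165) and 0.29 ± 0.05 after AI-9-54 (adjusted p 0.00156). Without AI-7-54 replicate 3 or 4 the AI-8-45 call ended (adjusted p 0.0926 and 0.0708), and that difference, within replicates 1 and 2 (a single AI-7-54 array), was 0.12 against 0.28 within replicates 3 and 4. Atp6v0d1, a membrane-sector subunit of the proton pump that acidifies the lysosome, had values of 11.13, 10.94 and 10.96, then 11.22, 11.19, 11.12 and 11.21, and 11.23, 11.21, 11.36 and 11.27 in the same order. AI-7-54 replicate 1 was high for its group and overlapped the AI-8-45 arrays. The AI-9-54 difference was 0.26 ± 0.06 (SE, adjusted p 0.00879), but 0.09 within replicates 1 and 2 and 0.37 within replicates 3 and 4, and it missed the threshold without AI-7-54 replicate 3 (adjusted p 0.051).

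The lysosomal membrane glycoprotein genes did not pass. Lamp2 measured 10.37, 10.54 and 10.49 after AI-7-54 and 10.60, 10.57, 10.73 and 10.70 after AI-9-54, groups that did not overlap, with a difference of 0.18 (adjusted p 0.0699). Lamp2 passed with the replicate set modelled, here (adjusted p 0.0024) and in AI-8-45 minus AI-7-54 (0.0211), and replicates 3 and 4 lay 0.13 above 1 and 2. With the replicate block it passed here (adjusted p 0.0113) but not in AI-8-45 minus AI-7-54 (0.0684). Lamp1 had means of 11.61, 11.56 and 11.61 after AI-7-54, AI-8-45 and AI-9-54, with a 95% interval of -0.09 to 0.10 for AI-9-54 minus AI-7-54. Atp6v1h, a cytosolic-sector subunit of the proton pump, differed by 0.01 (-0.08 to 0.11). Of the 5 genes of the lysosome membrane, 2 were called higher after AI-9-54 and 1 after AI-8-45.

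TFEB and its relatives bind E-box elements with the core CACGTG, and the letters before the transcript starts are shown for 2 genes called higher in AI-9-54 relative to AI-7-54, the gene called lower, and a gene with many copies and no measured difference. RefSeq windows were held for 34 of the 40 genes (40 windows, build GRCm38.p6), and the 250 bases before each start were searched. Each line gives the last 150 bases before the start, on the + strand, with CACGTG in capitals. The motif reads the same on both strands.
Fnip1, chr11:54438029-54438178: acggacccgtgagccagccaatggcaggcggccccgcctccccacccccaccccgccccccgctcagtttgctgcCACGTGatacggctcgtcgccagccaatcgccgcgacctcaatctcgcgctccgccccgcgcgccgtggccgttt
Mcoln1, chr8:3500369-3500518: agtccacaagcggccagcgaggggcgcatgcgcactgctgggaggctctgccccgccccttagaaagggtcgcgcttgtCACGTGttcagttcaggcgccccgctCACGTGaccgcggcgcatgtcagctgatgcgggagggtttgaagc
Atg7, chr6:114670946-114671095: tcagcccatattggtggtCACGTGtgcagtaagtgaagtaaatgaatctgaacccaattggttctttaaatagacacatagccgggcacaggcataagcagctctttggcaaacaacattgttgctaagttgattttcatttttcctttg
Lamp1, chr8:13159011-13159160: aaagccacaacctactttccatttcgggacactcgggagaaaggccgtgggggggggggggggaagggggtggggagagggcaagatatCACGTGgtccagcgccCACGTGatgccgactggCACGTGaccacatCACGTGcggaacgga

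The Fnip1 window held 1 copy, 75 bases before the start, and the Mcoln1 window 2 copies at 71 and 45 bases. The Atg7 copy lay 132 bases before the start. Lamp1 held 4 copies within 61 bases of the start, the most of any of these genes, and its level differed by 0.01 between AI-9-54 and AI-7-54. CACGTG was found in 11 of 40 windows of these genes (27.5%), in 17% of the windows of the other pathway genes described below and in 6.02% of 32851 promoter windows of the same length. The genes were listed as autophagy, lysosome and TFEB pathway genes, so the share of a TFEB motif among them is not independent of the listing. The longer form TCACGTGA, which overlaps it, was found in 5 of 40 windows (12.5%) against 0.785% of all, and the related TCACATGA, searched on both strands, in 1 of 40 (2.5%) against 0.846%. Among the 34 genes, those with CACGTG were Atg3, Atg5, Atg7, Ctsa, Ctsd, Ctsl, Fnip1, Gla, Lamp1, Mcoln1 and Rragc. Of these 11 genes 2 were higher and 1 lower in AI-9-54 minus AI-7-54, and their median difference was 0.01. Of the 23 without it in the searched bases before the start, 6 were higher and 0 lower, with a median of 0.11. Bases after the start were not searched, and this split counts the exact letters CACGTG only. Whether the motif goes with the differences was not tested. The letters are a description of these windows and do not mark a bound site.

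Atg14, Uvrag, Ulk1, Atg13 and Becn1 act at the start of autophagy. Atg14, the subunit that targets the Beclin 1 lipid kinase to autophagosome formation, measured 8.97, 8.91 and 9.0 after AI-7-54, 9.16, 9.04, 9.04 and 9.22 after AI-8-45, and 9.15, 9.31, 9.43 and 9.37 after AI-9-54. Both other compounds lay above all AI-7-54 arrays. The difference was 0.35 ± 0.07 (SE) after AI-9-54 (adjusted p 0.00391), with 0.26 and 0.44 within the replicate sets, and 0.15 after AI-8-45 (adjusted p 0.273). Uvrag, which encodes the subunit that takes the place of ATG14 in a second Beclin 1 complex acting on autophagosome and endosome maturation, had values of 9.98, 9.95 and 9.91, then 10.08, 10.07, 9.85 and 10.04, and 10.25, 10.31, 10.21 and 10.18. Here AI-8-45 overlapped AI-7-54, and all AI-9-54 arrays were above both. The difference was 0.29 ± 0.06 (SE) against AI-7-54 (adjusted p 0.00507) and 0.23 (95% interval 0.11 to 0.35, adjusted p 0.0695) against AI-8-45, the latter passing once the replicate set was modelled (adjusted p 0.016). Within the replicate sets the difference from AI-7-54 was 0.30 and 0.26.

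Ulk1, the gene of the initiating kinase, had a negative difference. It measured 10.76, 10.60 and 10.61 after AI-7-54, 10.65, 10.60, 10.71 and 10.70 after AI-8-45, and 10.46, 10.42, 10.60 and 10.52 after AI-9-54. The differences of AI-9-54 were -0.16 from AI-7-54 and -0.16 from AI-8-45, and neither passed (adjusted p 0.0959 and 0.206), although without AI-9-54 replicate 3 the first was called. Atg13, which encodes a scaffold of the ULK1 complex, differed by 0.11 and Becn1, the Beclin 1 gene, by 0.03 after AI-9-54 (adjusted p 0.238 and 0.843). So 2 of these 5 initiation genes were called higher after AI-9-54 and 0 in the other comparisons, where 1 and 3 of the 5 had an unadjusted p under 0.05.

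Genes that bring membrane to the growing autophagosome are Atg9a, which encodes a scramblase carried on vesicles, Atg2a, a lipid transfer protein, and Wipi1 and Wipi2, which bind the lipid made by the Beclin 1 complexes. Atg9a measured 8.95, 8.84 and 8.94 after AI-7-54, 9.13, 9.07, 9.26 and 9.23 after AI-8-45, and 9.08, 9.06, 9.33 and 9.28 after AI-9-54. The AI-7-54 arrays lay below all others, and replicates 3 and 4 lay above 1 and 2 after AI-8-45 and AI-9-54. The difference after AI-9-54 was 0.28 ± 0.07 (SE, adjusted p 0.0222), and it was 0.12 within replicates 1 and 2 and 0.42 within 3 and 4. That call ended without AI-7-54 replicate 3 or 4 (adjusted p 0.106 and 0.0573) and without AI-9-54 replicate 3 or 4 (0.0553 and 0.0593). Atg2a, Wipi1 and Wipi2 differed by 0.11, 0.12 and 0.07 after AI-9-54, and none of the 3 passed (adjusted p 0.554, 0.618 and 0.537). Wipi1 was dim (means of 6.6 to 6.72) and lay 0.25 higher in replicates 3 and 4 than in 1 and 2 (adjusted p 0.00801).

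Of the 6 conjugation genes, 1 was called. Atg7, the enzyme that activates both ATG12 and the ATG8 proteins, measured 9.01, 9.06 and 9.08 after AI-7-54, 9.0, 8.83, 8.98 and 8.91 after AI-8-45, and 8.80, 8.86, 8.97 and 8.84 after AI-9-54. All arrays of the other compounds lay below those of AI-7-54. The difference after AI-9-54 was -0.18 ± 0.05 (SE, adjusted p 0.044), which was -0.17 and -0.16 within the replicate sets. The call was lost when any of 7 arrays was left out, among them each AI-7-54 array (adjusted p 0.061, 0.138 and 0.15 without replicates 1, 3 and 4), AI-9-54 replicates 1, 2 and 4 (0.105, 0.0882 and 0.0942) and AI-8-45 replicate 4 (0.0583). The other conjugation genes had differences of 0.18 (Atg12, the ubiquitin-like modifier), 0.14 (Atg4b, a protease that trims the ATG8 proteins), 0.01 (Atg3, the conjugating enzyme), -0.01 (Atg16l1, which places the ligase complex on the membrane) and -0.06 (Atg5, the acceptor of ATG12). Their adjusted p ran from 0.104 for Atg4b to 0.977 for Atg3, although Atg12 was called without AI-8-45 replicate 3.

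None of the 5 ATG8 family genes was called in any comparison by the main limma model, which has no term for the replicate set. In AI-9-54 minus AI-7-54 there were 2 of 5 at an unadjusted p under 0.05 (0 and 1 of 5 in the others). Map1lc3a, an LC3 gene, measured 8.06, 8.31 and 8.06 after AI-7-54, 8.22, 8.16, 8.37 and 8.37 after AI-8-45, and 8.28, 8.31, 8.61 and 8.46 after AI-9-54. AI-7-54 replicate 3 overlapped the AI-9-54 arrays, and without it the gene was called. The difference was 0.27 (95% interval 0.07 to 0.47, adjusted p 0.0718), and replicates 3 and 4 lay 0.19 above 1 and 2 (adjusted p 0.0391). With that set modelled, the difference was 0.30 and passed (adjusted p 0.00457), as it did with the replicate block (0.00497). Map1lc3b, the LC3 gene most used as an autophagosome marker, differed by 0.13 (0.01 to 0.24, adjusted p 0.142). It passed with the set modelled (adjusted p 0.0333) but not with the replicate block (0.0741). Gabarapl1 had means of 10.42 ± 0.155 (SD, n = 3) after AI-7-54, 10.36 ± 0.247 (n = 4) after AI-8-45 and 10.63 ± 0.063 (n = 4) after AI-9-54, where the spread after AI-8-45 came from replicate 3 at 9.99. Gabarap and Gabarapl2 differed by 0.04 and -0.02 between AI-9-54 and AI-7-54. A dimmer probe set of Gabarap, with a mean of 8.80 against 12.49, gave -0.44 (unadjusted p 0.0968) in that comparison and so disagreed in sign.

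The transcription factor genes showed small differences. Tfeb measured 6.57, 6.59 and 6.67 after AI-7-54, 6.54, 6.49, 6.58 and 6.61 after AI-8-45, and 6.59, 6.44, 6.56 and 6.61 after AI-9-54, groups that overlap throughout. Its signal lay below the median of all genes (6.91) and no background level was used, so the files do not show whether it was detected. The 95% intervals for AI-9-54 minus AI-7-54 were -0.17 to 0.06 for Tfeb, -0.06 to 0.13 for Tfe3 and -0.07 to 0.20 for Mitf. Limma called none of the 3 genes in any comparison, and none had an unadjusted p under 0.05. RNA levels say nothing of where these proteins lie in the cell, which is how mTORC1 controls them.

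Of 7 hydrolase genes, 1 was called. Hexa, the gene of a hexosaminidase subunit that degrades gangliosides, measured 8.78, 8.45 and 8.46 after AI-7-54, 8.73, 8.62, 8.52 and 8.58 after AI-8-45, and 8.96, 8.93, 8.76 and 8.83 after AI-9-54. AI-7-54 replicate 1 overlapped AI-9-54, and replicates 1 and 2 lay above 3 and 4 in the groups with both (a difference of -0.18 between the replicate sets, adjusted p 0.0183). The difference after AI-9-54 was 0.30 ± 0.08 (SE, adjusted p 0.0289), with 0.16 and 0.34 within the replicate sets. It missed the threshold without AI-7-54 replicate 3 or 4 (adjusted p 0.143 and 0.135) and without AI-9-54 replicate 1 or 2 (0.0741 and 0.0746), and it passed once the replicate set was modelled (adjusted p 0.00288). Against AI-8-45 the AI-9-54 difference was 0.26, which was not called (adjusted p 0.165) but passed with the set modelled (0.0112). The cathepsin protease genes Ctsb and Ctsd differed by -0.03 (95% interval -0.13 to 0.06) and 0.00 (-0.17 to 0.16), and the protective protein gene Ctsa by 0.01 (-0.11 to 0.13). Ctsl, another cathepsin gene, had a wider interval of -0.23 to 0.37, the galactosidase gene Gla one of -0.42 to 0.08, and the sialidase gene Neu1 one of -0.17 to 0.04.

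**Figure D3:**
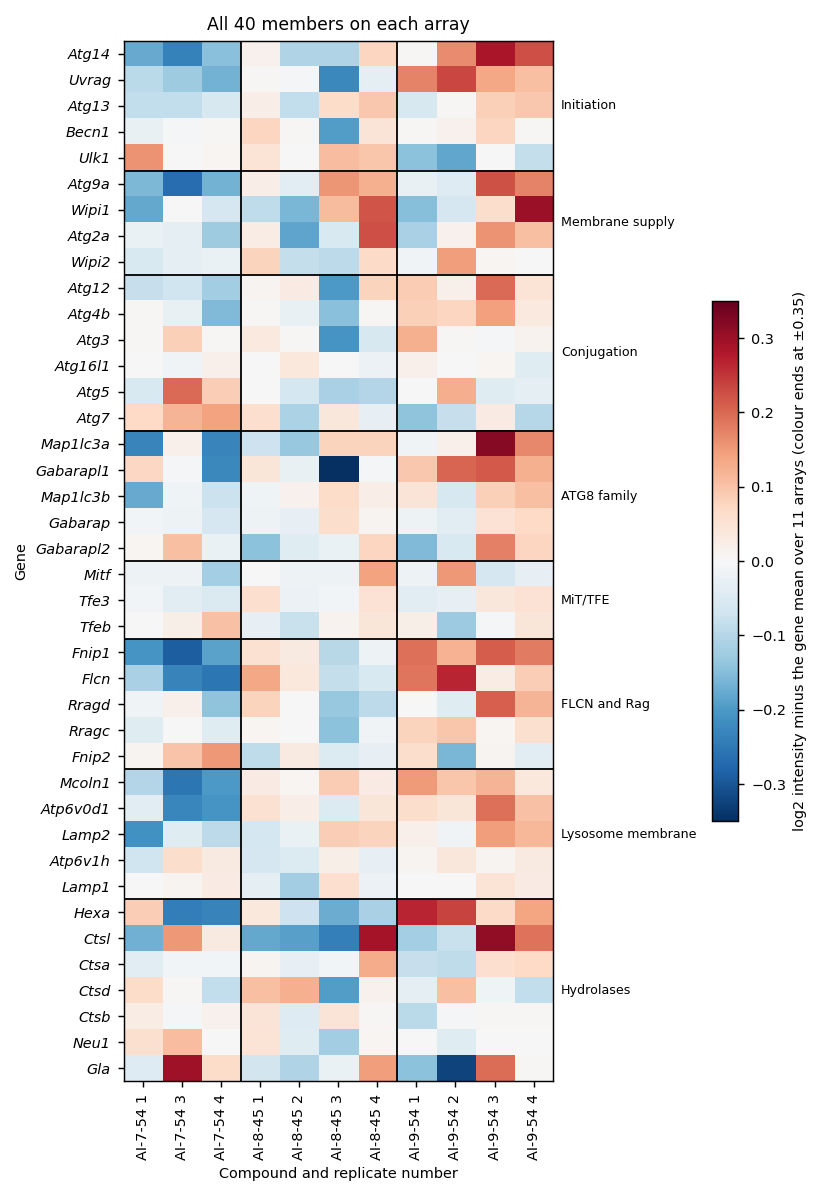
Log2 intensity of each of the 40 genes (rows, grouped by role) on each of the 11 arrays (columns, compound and replicate number), minus the mean of that gene over the arrays, with red above and blue below it. The rows of Atg14, Fnip1 and Flcn run from blue after AI-7-54 to red after AI-9-54, Wipi1 and Gla are redder in replicates 3 and 4 than in 1 and 2, and Gabarapl1 is lowest on AI-8-45 replicate 3 (9.99).

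Beyond the 40 genes, 142 of 152 other genes of the same processes were measured, in 6 lists. Between AI-9-54 and AI-7-54, 26 were higher and 7 lower (23.2% called, median 0.06), and between AI-8-45 and AI-7-54, 13 were higher and 3 lower (11.3%, median 0.02). Between AI-9-54 and AI-8-45, 2 were higher and 0 lower (1.41%, median 0.03). The corresponding shares of all genes were 14.2%, 5.66% and 1.31%, but these 142 genes were bright (their median level lay at percentile 80.7), and of genes above the median signal 26.3% and 10.9% were called in the comparisons with AI-7-54. The shares of the pathway genes were thus near those of other bright genes. By list, the share called in AI-9-54 minus AI-7-54 ran from 6.25% (proton pump) to 30.4% (further autophagy machinery). In AI-8-45 minus AI-7-54 the shares of these lists were 0% and 21.7%. The counts given below by list are not read as particular to a list. Leaving out AI-7-54 replicate 3 or replicate 4 lowered the AI-9-54 count from 33 to 21 and the AI-8-45 count from 16 to 8. The count of 2 between AI-9-54 and AI-8-45, Sesn3 and Sqstm1, was 0 without AI-8-45 replicate 1 or 3 and without AI-9-54 replicate 2, 3 or 4.

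Of 23 further autophagy machinery genes, 7 were higher and 0 lower in AI-9-54 relative to AI-7-54 (median 0.10). They were led by Tecpr1, whose protein tethers autophagosomes to lysosomes (8.78 ± 0.09, SD, n = 3, against 9.43 ± 0.08, n = 4, a difference of 0.65 with an adjusted p of 0.000207). Wdr45, a relative of the WIPI genes, differed by 0.43, Zfyve1 by 0.32 and Atg16l2 by 0.26. Between AI-8-45 and AI-7-54, 5 of the 23 were higher, among them Tecpr1 (0.38), Wdr45 (0.28), Zfyve1 (0.26) and Trp53inp1 (0.26). Of 10 measured autophagy receptor genes 3 were higher after AI-9-54, namely Calcoco1 (10.55 ± 0.07 against 11.04 ± 0.04, a difference of 0.48, adjusted p 2.47e-05), the selective receptor gene Sqstm1, which encodes p62 (0.27), and Nbr1 (0.22). Calcoco1 was also higher after AI-8-45 (0.41). Sqstm1 had means of 11.64, 11.66 and 11.91 after AI-7-54, AI-8-45 and AI-9-54, and it was higher after AI-9-54 than after AI-8-45 too (0.25, adjusted p 0.0394).

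Of 32 measured further hydrolase genes, 5 were higher and 2 lower in AI-9-54 relative to AI-7-54 (median 0.10). The glucuronidase gene Gusb was lower by the largest amount (10.14 ± 0.02 against 9.60 ± 0.12, a difference of -0.54, adjusted p 0.00016), followed by the sulfatase gene Arsb at -0.35, while the cathepsin genes Ctsc and Ctso differed by 0.39 and 0.36. After AI-8-45, Gusb was lower (-0.35) and the peptidase gene Tpp1 (0.28) and the acid lipase gene Lipa (0.24) were higher. Of 24 genes of the lysosome membrane and of delivery to it, 5 were higher and 2 lower after AI-9-54 (median 0.14). The cystine exporter gene Ctns (0.40) and the cholesterol exporter gene Npc1 (0.32) were higher, as was Mfsd8 (0.26), and Gnptab, which makes the mannose 6-phosphate tag of hydrolases, was lower (-0.31). Ctns (0.34), Npc1 (0.20) and Laptm5 (0.17) were higher and Gnptab (-0.25) lower after AI-8-45. The proton pump list held 1 called gene among 16, Atp6v0b, at 0.28 after AI-9-54.

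Among 37 genes of mTORC1, its regulators and AMPK, 5 were higher and 3 lower in AI-9-54 relative to AI-7-54, and the median was 0.01. Among the called genes of this list, the largest AI-9-54 differences were those of Sesn2, Deptor and Sesn3, which encode inhibitors of mTORC1. Other inhibitor genes of the list are not named here, and 19 of its 37 differences were above 0 and 18 below. Deptor had 2 probe sets, of which the brighter is given. Sesn3, a sestrin gene, had means of 10.62 ± 0.06, 11.11 ± 0.015 and 11.32 ± 0.04 after AI-7-54, AI-8-45 and AI-9-54. It was higher in each comparison, by 0.49 (adjusted p 6.07e-05), 0.69 (adjusted p 1.4e-06) and, for AI-9-54 minus AI-8-45, 0.21 (adjusted p 0.0296). Deptor, whose protein binds mTOR, differed by 0.49 after AI-8-45 and 0.71 after AI-9-54 (adjusted p 0.00413 and 0.000113). Sesn2 differed by 0.71 after AI-9-54 with overlapping groups (7.63 ± 0.34 against 8.34 ± 0.30, adjusted p 0.0363). Prkaa2, an AMPK catalytic subunit gene, was lower after AI-9-54 (-0.39). Rheb, the GTPase that activates mTORC1, was lower after AI-8-45 (-0.18) and was also called in AI-9-54 minus AI-7-54.

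**Figure D4:**
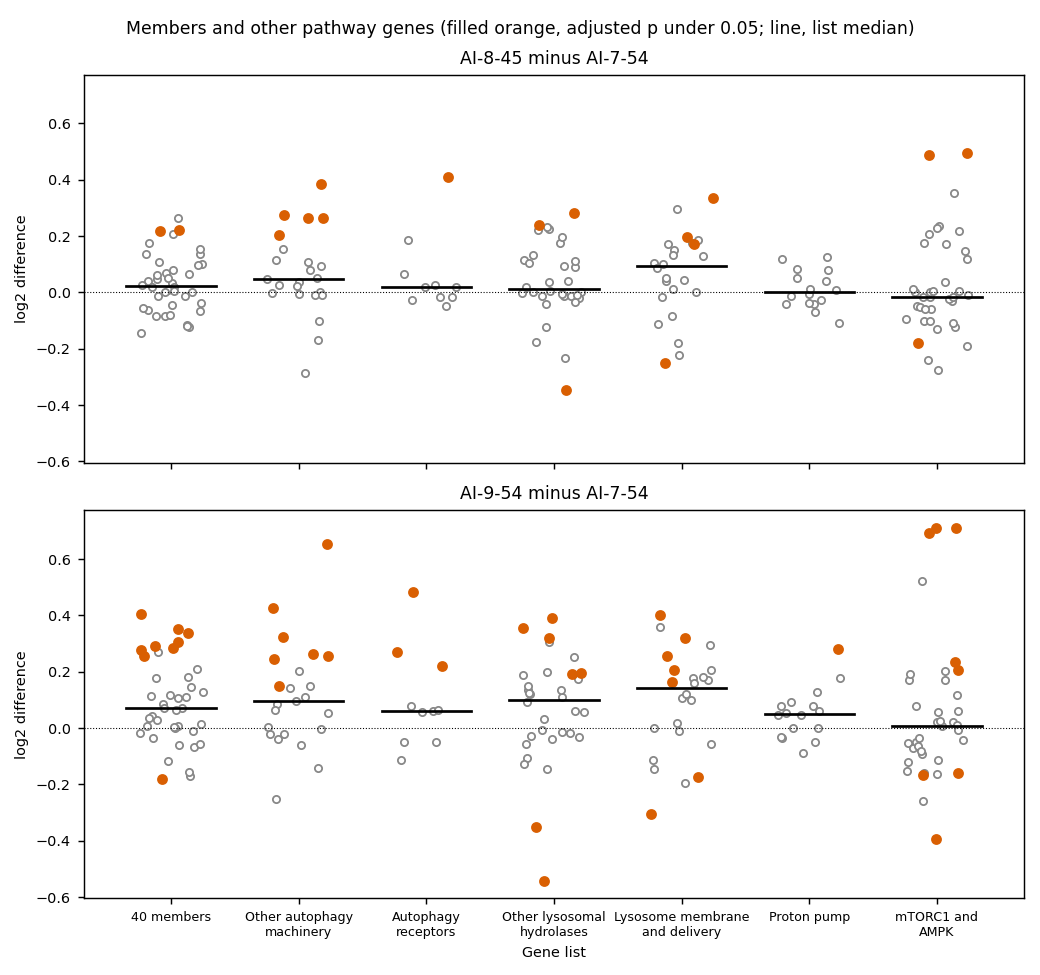
Log2 difference (vertical axes) of the 40 genes and of the genes in 6 lists of the same processes (horizontal axis) for AI-8-45 minus AI-7-54 (upper panel) and AI-9-54 minus AI-7-54 (lower panel), with a point for each gene, orange where the adjusted p was under 0.05, and a line at the list median. The highest list median is 0.14, and the points farthest up are Deptor, Sesn2, Sesn3 and Tecpr1 in the lower panel, with Gusb the lowest at -0.54.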

How the data were processed

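The deposited table holds 1 log2 intensity per probe set and array for 11 arrays, and RMA and Partek 6.6 are named in the submitters' processing notes. The values run from 3.23 to 13.8 and were read as log2 from that range. Per the labels' protocols, total RNA was amplified with a whole-transcript kit and labelled with biotin. Of 41345 probe sets, 23521 carried 1 symbol in the platform annotation, 1814 several and 16010 none here. Symbols were updated by Entrez identifier (GRCm38.p6 table, 23328 found). The highest-mean probe set represented each of 22180 genes, with no filter on dim genes.

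All comparisons came from 1 limma 3.58.1 model (R 4.3.3) on 11 arrays with no covariate (8 residual degrees of freedom, prior 4.14). Tests were two-sided, with Benjamini-Hochberg adjustment over all genes of a comparison. Precision is limited by the number of arrays. The method was also run on simulated data with independent errors and no replicate sets, and that run is not used as support here. Figures used matplotlib 3.10.9.

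The members, lists and replicate sets were chosen with earlier results of these data known. All 40 members are accounted for. Members called in any comparison are given array by array, and up to 4 called genes per list and comparison are named by size. Sequences are RefSeq's (GRCm38.p6). Alternatives were other scalings, a filter, the mean over probe sets, the prior, array weights, a replicate block, the replicate set, fewer groups and each array left out.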

Additional observations from a re-analysis of the deposited data

Results flagged for a closer look

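On some arrays a gene lay apart from the other 3 arrays of its group of 4, judged against the range of that group. Some of the gaps flagged this way are small in log2 units, as for Npc1 and Epg5. The gap was tested for the 40 genes and for the other pathway genes called in any comparison, in 146 groups in all, with Dixon's 95% critical value. It held in 13 groups, where chance gives about 1 in 20, and 4 of the 13 lay on AI-8-45 replicate 3. On that array Gabarapl1 was at 9.99 (others 10.45 to 10.52), Atg4b at 7.44 (7.56 to 7.59), Rragc at 10.19 (10.32 to 10.34) and Ctns at 10.17 (10.25 to 10.26). On AI-8-45 replicate 4, Ctsl was at 9.69 (9.16 to 9.22) and Mitf at 7.16 (7.0 to 7.02), and on its replicate 1 Epg5 was at 8.99 (others 8.96). On AI-9-54 replicate 1, Atg3 was at 10.57 (10.44 to 10.46), Ctsb at 10.83 (10.92 to 10.93) and Npc1 at 10.29 (others 10.31). On AI-9-54 replicate 2, Neu1 was at 9.36 (others 9.40) and Wipi2 at 10.20 (10.04 to 10.06), and on its replicate 3 Becn1 was at 9.89 (9.82 to 9.83). The cause was not tested.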

How the results depend on the processing

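Across 22 alternatives, the 11 calls of single genes among the 40 kept their direction in all 242 values and passed the threshold in 200. Several alternatives leave the difference itself unchanged: the prior, the filter, the mean over probe sets and only the compared groups. Leaving out an array of the third group does so too. The direction was fixed in advance in all of these. The calls of Fnip1, Flcn, Mcoln1 and Atg14 between AI-9-54 and AI-7-54 were each lost in 1 alternative, replicates 1 and 2 only, where AI-7-54 has 1 array, that of Uvrag in either replicate set alone, and that of Atg7 in 13. Of the 40 genes, the count called between AI-8-45 and AI-7-54 (2) was 4 with quantile normalization, 1 with each array minus its median, 5 with array weights, 5 with the replicate set as a factor, 0 in replicates 1 and 2, 1 in replicates 3 and 4, and 0 to 3 with 1 array left out. For AI-9-54 minus AI-7-54 (9) it was 0 in replicates 1 and 2 and 6 to 10 with 1 array left out. For AI-9-54 minus AI-8-45 (0) it was 2 among genes above the median signal, 2 with the replicate block and 3 with the replicate set. With the replicate block, 3 and 10 genes were called in the comparisons with AI-7-54, and Atg7 was lost (adjusted p 0.0817). The replicate block added Atg9a (adjusted p 0.0214) in AI-8-45 minus AI-7-54 but not Flcn (0.0597) or Lamp2 (0.0684), added Map1lc3a (0.00497) and Lamp2 (0.0113) but not Map1lc3b (0.0741) in AI-9-54 minus AI-7-54, and added Uvrag (0.0437) and Hexa (0.0197) but not Fnip1 (0.0807) in AI-9-54 minus AI-8-45. Deviations of same-numbered arrays correlated over 0.1 in 6 of 10 pairs (-0.02 to 0.45), so single numbers were not taken to pair the arrays. The numbers did carry the split into sets, with correlations of -0.02 to 0.49 between arrays of the same set and -0.47 to 0.01 between arrays of different sets.

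Counts over all genes for AI-8-45 minus AI-7-54 (1255) were 1949 with the replicate set, 2 in replicates 1 and 2, 613 in replicates 3 and 4 and 540 to 1229 with 1 array left out (540 and 622 without AI-7-54 replicates 3 and 4). For AI-9-54 minus AI-7-54 (3139) the count was 593 in replicates 1 and 2. For AI-9-54 minus AI-8-45 (290) it was 436 among genes above the median signal, 517 with the replicate block, 816 with the replicate set, 6 and 143 within the sets, 141 with only the compared groups and 128 to 257 with 1 array left out. Pathway genes called for AI-8-45 minus AI-7-54 (16) were 25 among genes above the median signal, 27 with array weights, 28 with the replicate set, 0 and 6 within the sets and 8 to 18 with 1 array left out. For AI-9-54 minus AI-7-54 (33) they were 53 with the replicate set, 6 in replicates 1 and 2 and 21 to 34 with 1 array left out. For AI-9-54 minus AI-8-45 (2) they were 4 with quantile normalization, 0 with each array minus its median, 6 with the replicate set, 0 in replicates 1 and 2, 0 with only the compared groups and 0 to 3 with 1 array left out. Fewer arrays or genes enter some of these fits, and otherwise the cause was not tested. Dim probe sets (Fnip2, Tfeb, Wipi1) have no background level here.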
